A study of Mus musculus with 71 samples.

Results

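The genes described here encode 9 proteins that carry the signal of the B cell receptor from the cell surface to the cytoplasm: the signalling chains *Cd79a* and *Cd79b*, the Src-family kinases *Blk* and *Lyn*, the kinases *Syk* and *Btk*, the adaptor *Blnk*, and the inhibitory coreceptors *Cd22* and *Cd72*. They were chosen by symbol, and all 9 were found among the 25579 genes of the tables for *Pax5* genotypes and among the 24420 genes of the tables for lymphoid progenitors. Expression of these genes was followed in 48 of the 71 samples of the series, namely those of mouse RNA-seq. All mice were on the C57BL/6 background, the labels give no age, and all cells were sorted directly from bone marrow or thymus.

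The transcription factor Pax5 commits lymphoid progenitors to the B cell lineage. The *Pax5* +/+ group held 5 samples of pro-B cells, the first B lineage cells in which Pax5 is active, and each of the 13 other genotype groups held 2 samples. Homozygous deletions removed the octapeptide motif (∆OP/∆OP), the partial homeodomain (∆HD/∆HD) or both (∆OP,HD/∆OP,HD), which lie between the DNA-binding paired domain and the C-terminal end. Other alleles lacked the C-terminal regulatory domain 1 (∆CRD1), which spans the transactivation domain, domain 2 (∆CRD2), a shortened form of the sequence known as the inhibitory domain, or both (∆CRD1,2). Each of these was studied with 2 mutant copies (∆CRD1/∆CRD1) and with 1 mutant copy over a *Pax5* null allele (∆CRD1/-). Pax5-deficient progenitors carried *Vav*-Cre and 2 floxed alleles (*Vav*-Cre *Pax5* fl/fl, here ∆/∆), in which Cre recombinase acts in all haematopoietic cells from the stem cell on, so that deletion was not limited to B cells. In a separate experiment, all mice carried *Vav*-Cre and had either a wild-type and a deleted allele (fl/+, here +/∆), an allele that makes only the paired domain over a deleted allele (Prd/fl, here Prd/∆), or 2 deleted alleles (∆/∆). The lymphoid samples came from wild-type lymphoid-primed multipotent progenitors (LMPP) of the bone marrow, from the successive wild-type thymocyte stages DN1, DN2a, DN2b, DN3a and DN3b, and from DN3a cells of *Rag2* -/- mice, which cannot rearrange antigen receptor genes. DN1, DN2a and DN2b had 3 samples each and the other stages 2 each. Within DN1, DN2a and DN2b, 2 samples each share a replicate number in the labels and were counted as separate samples. The labels do not say whether such samples came from the same material.

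The sort differed with the genotype. *Pax5* +/+, ∆CRD1/- and ∆CRD2/- pro-B cells were sorted with 1 gate, whereas ∆CRD1,2/- and ∆/∆ cells were sorted with another, as Lin-Ly6D+B220+ cells with high Kit. The labels call the ∆CRD1,2/∆CRD1,2 cells pro-B cells, and their gate is not given in the sources used here. In the Prd experiment, the labels describe the +/∆ cells as pro-B cells and the Prd/∆ and ∆/∆ cells as progenitors of an alternative gate. For these comparisons the gate and the genotype cannot be told apart.

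In the B lineage, the receptor consists of an immunoglobulin bound to the heterodimer of Cd79a (Igα) and Cd79b (Igβ), whose cytoplasmic tails are phosphorylated by Src-family kinases upon engagement. Syk docks on these tails and, together with Btk, acts on phospholipase C bound to the adaptor Blnk. In pro-B and pre-B cells the same proteins serve the pre-B cell receptor, while Cd22 and Cd72 recruit a phosphatase that dampens the signal.

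The sequences around the transcription start of *Cd79a*, *Cd72* and *Blnk*, members that fell in Pax5-deficient and in ∆CRD1,2 cells (below), are shown because Pax5 and other factors of the B lineage act on such regions. They run from 250 bases before to 50 bases after a start in RefSeq, build GRCm38.p6. The windows lie at chr7:24897247-24897546 (plus strand), chr4:43454577-43454876 (minus strand) and chr19:40994172-40994471 (minus strand). Capitals mark matches on either strand to any of the motifs searched, which were CCCNNGGG (Ebf1 core), CGGAA (Ets core), GAGGAA (PU box), CAGGTG (E box), ATGCAAAT (octamer), TGTGGT (Runx) and GCGTGAC (a part of the Pax paired domain consensus).
Cd79a: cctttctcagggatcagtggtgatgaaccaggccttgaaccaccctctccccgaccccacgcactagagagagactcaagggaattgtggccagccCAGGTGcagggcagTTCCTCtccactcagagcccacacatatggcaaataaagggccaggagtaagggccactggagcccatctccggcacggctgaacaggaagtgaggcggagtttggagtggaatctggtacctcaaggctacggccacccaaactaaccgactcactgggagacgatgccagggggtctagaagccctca
Cd72: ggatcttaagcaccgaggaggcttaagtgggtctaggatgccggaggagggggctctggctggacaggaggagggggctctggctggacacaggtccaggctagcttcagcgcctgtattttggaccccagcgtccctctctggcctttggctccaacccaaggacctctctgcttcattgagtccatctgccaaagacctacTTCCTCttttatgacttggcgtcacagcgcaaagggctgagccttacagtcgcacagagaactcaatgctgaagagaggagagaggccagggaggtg
Blnk: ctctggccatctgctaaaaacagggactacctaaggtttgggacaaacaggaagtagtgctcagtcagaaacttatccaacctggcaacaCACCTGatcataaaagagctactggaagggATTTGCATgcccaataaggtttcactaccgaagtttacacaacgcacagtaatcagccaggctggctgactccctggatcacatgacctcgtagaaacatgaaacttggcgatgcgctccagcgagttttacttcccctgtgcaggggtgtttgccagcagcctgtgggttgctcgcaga

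In the *Cd79a* window, CAGGTG began at position -154 relative to the start and GAGGAA, on the opposite strand, at -140. The *Blnk* window held an E box at -160 and an octamer at -130, both on the opposite strand. *Cd72* had a single match, GAGGAA on the opposite strand at -47 relative to the start used for its window. This window lies wholly inside the *Cd72* gene, which begins on this strand at 43455102. The start used is therefore not the outer end of the gene. Of 32851 promoters of this length, 20.2% held CAGGTG, 28.3% GAGGAA, 1.74% the octamer, 13.7% CCCNNGGG, 29.9% CGGAA, 16.8% TGTGGT and 2.09% GCGTGAC. Promoter entries existed for 6 of the 9 members, in 7 windows because *Syk* had 2, and CAGGTG occurred in 5 of these 7 and GAGGAA in 4. The octamer, CCCNNGGG and GCGTGAC each occurred in 1 of the 7, and CGGAA and TGTGGT in 0. *Cd79b*, *Blk* and *Lyn* had no entry. These matches describe letters only, and no binding was measured from them. A missing match does not mean a missing site, since only exact letters were searched. The study cites earlier work that implicated Pax5 in bringing Ets factors to the *Cd79a* promoter, where neither the Ets nor the Pax letters matched.

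In this build, *Cd79a* lies at chr7:24897497-24901858 and *Cd79b* at chr11:106311341-106314562. The kinase genes lie at chr14:63372837-63417187 (*Blk*), chr4:3678068-3791612 (*Lyn*), chr13:52582610-52648792 (*Syk*) and chrX:134542334-134583628 (*Btk*). *Blnk* spans chr19:40928927-40994221, *Cd22* chr7:30865404-30880342 and *Cd72* chr4:43447724-43455102. *Cd72* overlaps the protein-coding gene *Tesk1*, *Blk* overlaps 1 and *Lyn* 3 non-coding or pseudogene entries. Counting by strand is not given in the sources used here, so that reads within these overlaps are uncertain.

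Expression is given in TPM, a transcript abundance unit normalised for gene length and library size. Between 10018678 and 43784791 reads were counted per genotype sample. Markers of pro-B cells, 10 genes such as *Ebf1*, *Vpreb1* and *Rag1*, summed to 11900 to 15000 TPM in *Pax5* +/+ cells and to 8500 to 9570 TPM in ∆/∆ progenitors. RNA of granulocytes and macrophages varied between replicates, as its 14 markers summed to 5130 TPM in *Pax5* +/+ replicate 4 but to 499 to 1190 TPM in the other 4, and to 11400 and 864 TPM in the 2 ∆CRD2/- samples. The labels do not say whether samples of a group came from separate mice, so that p-values measure the spread between these samples, which may be technical. *Pax5* mRNA measured 442 ± 84.8 TPM (SD, n = 5) in *Pax5* +/+ cells, and 457 (∆OP/∆OP), 464 (∆HD/∆HD), 470 (∆OP,HD/∆OP,HD), 273 (∆CRD2/-), 488 (∆CRD2/∆CRD2), 431 (∆CRD1/-), 772 (∆CRD1/∆CRD1), 481 (∆CRD1,2/-) and 765 TPM (∆CRD1,2/∆CRD1,2) on average in the mutants. It was 1650 ± 61.8 TPM (n = 2) in ∆/∆ progenitors and, in the Prd experiment, 619 (+/∆), 736 (Prd/∆) and 1220 TPM (∆/∆). The *Pax5* level was thus higher, not lower, in the deficient cells. Cre removes only a part of the gene, and reads over the rest are still counted, so this level does not check the deletion.

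In *Pax5* +/+ pro-B cells, *Cd79a* was the most abundant member, with 3190 ± 725 TPM (SD, n = 5), followed by *Cd79b* with 2120 ± 246 TPM and *Blnk* with 1460 ± 133 TPM. *Syk* reached 558 ± 72.6 TPM and *Cd72* 263 ± 89.0 TPM. *Btk* (141 ± 64.7 TPM), *Blk* (129 ± 33.8 TPM) and *Lyn* (112 ± 20.4 TPM) formed a group whose levels did not differ beyond their spread, and *Cd22* was lowest with 59.6 ± 8.49 TPM. The ranges of *Cd79a* and *Cd79b* did not overlap, with 2600 TPM as the lowest *Cd79a* and 2490 TPM as the highest *Cd79b* value. *Btk* varied most in relation to its mean, from 74.9 to 226 TPM.

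**Figure D1:**
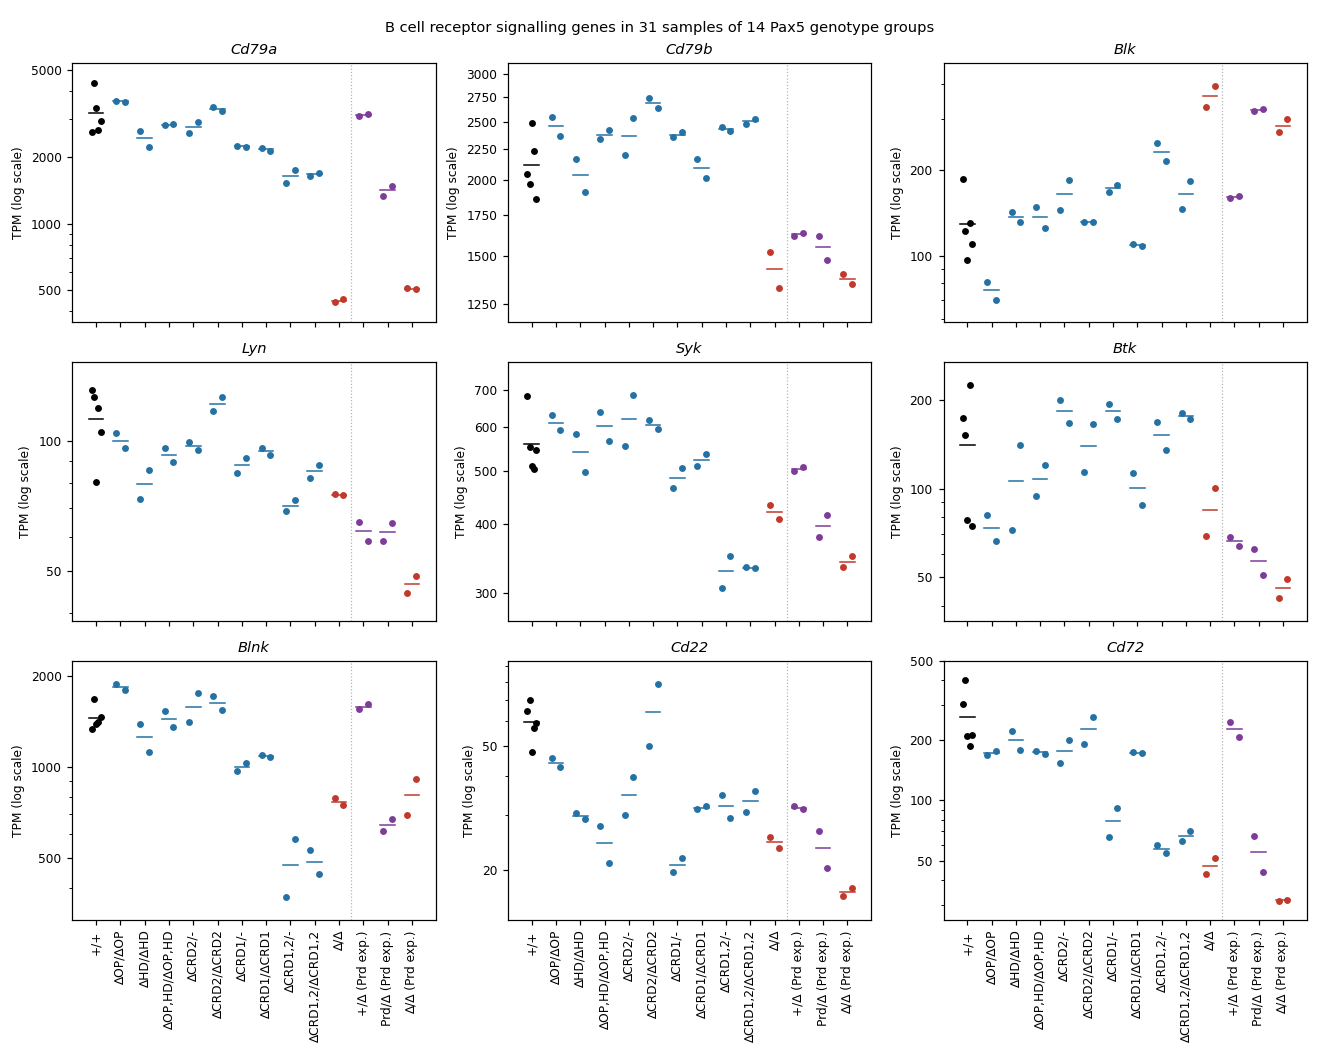
TPM of each member gene (log scale, a separate scale per gene) in 14 genotype groups, with points for samples and lines for group means (black, *Pax5* +/+; blue, domain deletions; red, ∆/∆; purple, other groups of the Prd experiment, which lies right of the dotted line). *Cd79a* and *Cd72* are lowest and *Blk* is among its highest in Pax5-deficient cells.

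The first comparison asked how the receptor genes depend on Pax5. In ∆/∆ progenitors, 7 of the 9 members fell and *Blk* rose relative to *Pax5* +/+ pro-B cells. Of all 13637 genes tested, 31.7% passed the same threshold, an adjusted p under 0.05 in limma with Benjamini-Hochberg adjustment, and 14.6% passed it as lower. The median log2 fold change was -0.68 over the members and 0.01 over all genes. Here and for the C-terminal deletions below, read length was a term of the model. Each of these fold changes against *Pax5* +/+ thus compares a genotype with controls sequenced at the same length. Reads had 50 bases in *Pax5* +/+ replicates 1, 2 and 5 and in ∆/∆ and ∆CRD1/∆CRD1 cells. They had 100 bases in *Pax5* +/+ replicates 3 and 4 and in the other C-terminal deletions. The fold changes rest on the controls of the same read length alone, whereas control ranges cover all *Pax5* +/+ samples. Read length did not differ within the other fits and was no term there. All fold changes by limma are on the log2(TPM + 0.1) scale. In such bulk samples, fewer expressing cells and less RNA per cell cannot be told apart.

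The signalling chains behaved unequally. *Cd79a* measured 2600, 4360, 3370, 2660 and 2940 TPM in *Pax5* +/+ replicates 1 to 5, and 439 and 452 TPM in ∆/∆ progenitors. All ∆/∆ values lay far below the lowest control. The decrease was 7.22-fold, a log2 fold change of -2.85 ± 0.20 (SE; adjusted p = 2.09e-06). *Cd79b* ranged from 1860 to 2490 TPM in the controls and measured 1520 and 1330 TPM in ∆/∆ progenitors. These groups did not overlap either, but the change was small, at -0.46 ± 0.12 (adjusted p = 0.0144). Consequently, the ratio of *Cd79a* to *Cd79b* TPM, 1.18 to 2.21 in the controls, was 0.288 to 0.340 in ∆/∆ progenitors.

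Among the kinases, *Blk* rose and the others were lower or not different. *Blk* measured 185, 122, 96.6, 130 and 110 TPM in *Pax5* +/+ cells and 331 and 394 TPM in ∆/∆ progenitors, a 2.67-fold increase (log2 fold change 1.42 ± 0.22, adjusted p = 0.000496) with no overlap. *Lyn*, which has both activating and inhibitory roles, fell from 80.2 to 131 TPM in the controls to 75.2 and 74.9 TPM (-0.68 ± 0.16, adjusted p = 0.00721). *Syk*, the kinase that binds the phosphorylated chains, fell from 503 to 682 TPM to 433 and 408 TPM (-0.49 ± 0.14, adjusted p = 0.0176). Both decreases were modest, at 1.60-fold and 1.4-fold. *Btk* measured 68.9 and 101 TPM, within the control range, and its log2 fold change of -0.59 had a 95% confidence interval from -1.53 to 0.34 (adjusted p = 0.331).

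The adaptor gene *Blnk* measured 1340, 1680, 1390, 1410 and 1460 TPM in *Pax5* +/+ cells and 790 and 748 TPM in ∆/∆ progenitors, a 1.94-fold decrease without overlap (-0.95 ± 0.18, adjusted p = 0.00189). Of the inhibitory coreceptors, *Cd72*, a C-type lectin, measured 304, 401, 211, 187 and 212 TPM in the controls and 43.0 and 51.4 TPM in ∆/∆ progenitors. This 6.28-fold decrease (-2.65 ± 0.24, adjusted p = 1.13e-05) was close in size to that of *Cd79a*. *Cd22*, a sialic acid-binding lectin, fell 2.63-fold from 47.6 to 70.2 TPM to 25.5 and 23.4 TPM (-1.4 ± 0.16, adjusted p = 5.42e-05), again without overlap. The *Cd79b* call was lost without ∆/∆ replicate 2 (adjusted p = 0.121) and upon median-of-ratios rescaling (0.0589), and the *Syk* call without ∆/∆ replicate 1 (0.0621) or 2 (0.103) or *Pax5* +/+ replicate 1 (0.0554). Markers of plasmacytoid dendritic cells moved with these changes. Of the 8 genes of this list, 6 were called higher and 0 lower, and their sum was 676 to 952 TPM in *Pax5* +/+ cells and 5020 to 5830 TPM in ∆/∆ progenitors. In ∆/∆ progenitors most of this sum was *Ly6d*, itself a marker of the gate, with 3940 to 4060 TPM against 239 to 478 TPM in the controls. The defining marker *Siglech* measured 0.551 to 13.9 and 70.6 to 195 TPM, and *Klk1* was listed at 0 in the lowest control. T cell markers (10 genes) summed to 71.3 to 88.7 and 165 to 191 TPM, NK cell markers (6 genes) to 24.2 to 43.4 and 42.4 to 90.3 TPM, markers of later B cells (5 genes) to 38.6 to 290 and 227 to 385 TPM, and erythroid markers (8 genes, with *Hba-a1* and *Hbb-b1* listed at 0) to 173 to 490 and 31.5 to 114 TPM. Of the later B cell list, 4 genes were tested, with 1 called higher, 1 called lower and a median log2 fold change of -0.69. Its genes above 1 TPM numbered 4 in the controls and 2 in ∆/∆ progenitors, so its higher sum did not stand for the whole list. The part of all these lists in the result was not tested.

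The Prd experiment repeated the comparison with its own controls. In +/∆ pro-B cells, 7 members were higher and *Blk* was lower than in ∆/∆ progenitors, against 39.9% of 12941 genes called in either direction and 19.1% called higher. *Cd79a* measured 3100 and 3150 TPM in +/∆ and 507 and 505 TPM in ∆/∆ cells (log2 fold change 2.63 ± 0.08, adjusted p = 1.93e-05). *Cd72* measured 247 and 207 TPM against 31.5 and 31.7 TPM (2.84 ± 0.20, adjusted p = 0.000143). *Blk* was again the exception, with 159 and 162 TPM in +/∆ and 270 and 300 TPM in ∆/∆ cells (-0.83 ± 0.08, adjusted p = 0.000478). *Blnk* (0.99), *Cd22* (0.90) and *Syk* (0.56) were called higher in +/∆ cells, as were *Btk* (0.53 ± 0.13, adjusted p = 0.0176) and *Lyn* (0.41 ± 0.10, adjusted p = 0.0186). *Cd79b* differed by 0.25 ± 0.08 and did not pass (adjusted p = 0.0516). The last 3 calls or non-calls rest on few samples: without 1 of the +/∆ samples or without ∆/∆ replicate 1, the adjusted p of *Btk* was 0.0867 to 0.127 and that of *Lyn* 0.0667 to 0.154, whereas without either Prd/∆ sample that of *Cd79b* was 0.0103 or 0.0151. All 9 members had the same direction of change with Pax5 deficiency in both experiments, and *Cd79a* and *Cd72* lay farthest from 0 in both. Plasmacytoid dendritic cell markers again moved with the groups, from 1050 to 1070 TPM in +/∆ to 2900 to 3750 TPM in ∆/∆ cells, where *Siglech* reached 17.3 to 23.5 TPM. Of 7 genes of this list tested, 5 were called lower and 2 higher in +/∆ cells.

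**Figure D2:**
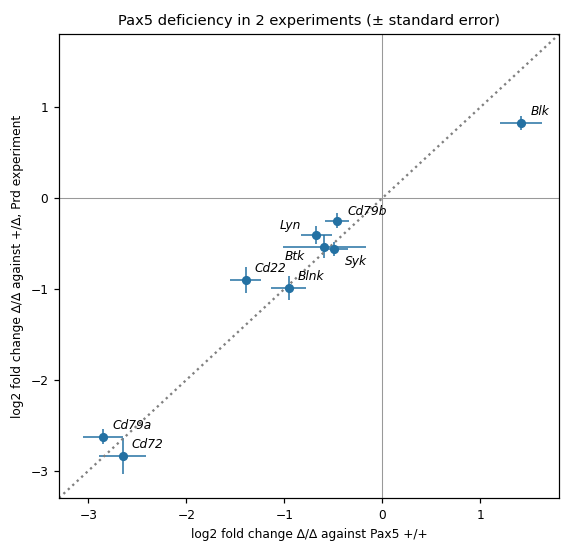
Log2 fold change of each member in ∆/∆ cells against *Pax5* +/+ cells (horizontal) and against +/∆ cells of the Prd experiment (vertical), with bars for the standard error and a dotted line of equality. *Cd79a* and *Cd72* lie at the lower left, *Blk* alone at the upper right.

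The second comparison addressed the C-terminal domains. Deletion of both domains lowered *Blnk*, *Cd72*, *Cd79a*, *Syk* and *Cd22*, regardless of whether 1 or 2 mutant copies were present. In ∆CRD1,2/- cells, 6 members were called, 5 of them lower and *Blk* higher, against 20.2% of 13637 genes in either direction and 12.3% lower. In ∆CRD1,2/∆CRD1,2 cells, 5 members were called by limma, all lower, against 24.6% of 13598 genes in either direction and 14.4% lower. The median log2 fold change of the members was -0.63 and -0.60, and that of all genes -0.04 and 0.

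*Blnk*, the adaptor gene, fell with both domains deleted. It measured 374 and 578 TPM in ∆CRD1,2/- and 532 and 445 TPM in ∆CRD1,2/∆CRD1,2 cells, all below the 790 and 748 TPM of ∆/∆ progenitors. The log2 fold changes against *Pax5* +/+ cells were -1.59 ± 0.20 (adjusted p = 0.000246) and -1.52 ± 0.19 (adjusted p = 6.72e-05). The direct comparison of ∆/∆ with ∆CRD1,2/- cells gave 0.63 for *Blnk* and did not pass (95% confidence interval 0.05 to 1.22, adjusted p = 0.286). *Syk* values had the same order, with 306 and 351 TPM, 334 and 333 TPM, and 433 and 408 TPM in these 3 genotypes. Its fold changes against the controls were -0.63 ± 0.15 (adjusted p = 0.0126) and -0.60 ± 0.13 (adjusted p = 0.00513), and ∆/∆ differed from ∆CRD1,2/- cells by 0.14 (adjusted p = 0.842).

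*Cd72* measured 59.5 and 54.6 TPM in ∆CRD1,2/- and 62.9 and 70.6 TPM in ∆CRD1,2/∆CRD1,2 cells, 3.48-fold and 2.98-fold below *Pax5* +/+ (-1.80 ± 0.26, adjusted p = 0.000713, and -1.57 ± 0.25, adjusted p = 0.00054). All 4 values lay below the lowest control and above both ∆/∆ values (43.0 and 51.4 TPM). *Cd79a* held an intermediate level, with 1530 and 1760 TPM in ∆CRD1,2/- and 1650 and 1700 TPM in ∆CRD1,2/∆CRD1,2 cells. These values are lower than in any control (-0.87 ± 0.22, adjusted p = 0.0178, and -0.84 ± 0.20, adjusted p = 0.00875). They also exceeded those of ∆/∆ progenitors, where *Cd79a* was 3.96-fold lower than in ∆CRD1,2/- cells (-1.98 ± 0.30, adjusted p = 0.00939), the single member called among 2.02% of all genes. *Cd22* measured 34.7, 29.3, 30.7 and 35.7 TPM in the 4 samples (-0.70 ± 0.17, adjusted p = 0.0145, and -0.65 ± 0.20, adjusted p = 0.0323).

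*Blk* was higher in ∆CRD1,2/- cells, with 247 and 214 TPM (1.03 ± 0.24, adjusted p = 0.0106). With 146 and 183 TPM, ∆CRD1,2/∆CRD1,2 cells overlapped the controls, and the increase of 0.54 ± 0.22 did not pass by limma (adjusted p = 0.0916). It passed by edgeR (0.0335) and DESeq2 (0.0189), upon median-of-ratios (0.0493) or TMM rescaling (0.0456) and without *Pax5* +/+ replicate 1 (0.0295). *Cd79b* measured 2450, 2410, 2480 and 2530 TPM in the 4 samples, at the upper end of the control range, and its intervals ran from -0.26 to 0.34 and from -0.17 to 0.34. The *Cd79a* to *Cd79b* ratio was therefore 0.627 to 0.730 and 0.665 to 0.671 in these genotypes. *Lyn* (-0.46, adjusted p = 0.0881, and -0.20, adjusted p = 0.39) and *Btk* (0.19 and 0.41, adjusted p = 0.836 and 0.528) did not pass by limma. In ∆CRD1,2/- cells, however, both *Lyn* values (68.8 and 72.9 TPM) lay below all controls. There *Lyn* passed by DESeq2 (0.0422), in 1 model of 19 samples (0.0411), without the read length term (0.0115) and without *Pax5* +/+ replicate 3 (0.0133). In ∆CRD1,2/∆CRD1,2 cells *Lyn* passed without *Pax5* +/+ replicate 3 (0.0352).

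*Blnk* and *Cd72* were called in both genotypes, and *Syk* in ∆CRD1,2/∆CRD1,2 cells, under every alternative run. In ∆CRD1,2/- cells, the calls of *Blk*, *Cd79a* and *Syk* were lost without *Pax5* +/+ replicate 3 (adjusted p = 0.0907, 0.124 and 0.0617) and without ∆CRD1,2/- replicate 1 (0.0814, 0.115 and 0.0949), that of *Cd22* without *Pax5* +/+ replicate 4 (0.0967) or ∆CRD1,2/- replicate 2 (0.0835), and that of *Syk* also without *Pax5* +/+ replicate 4 (0.051). In ∆CRD1,2/∆CRD1,2 cells, *Cd22* did not pass without any 1 of *Pax5* +/+ replicate 3 (0.0544) or 4 (0.155) or mutant replicate 1 (0.191) or 2 (0.0709), nor *Cd79a* without *Pax5* +/+ replicate 3 (0.0879) or mutant replicate 1 (0.0575). Without the samples that had over 3000 TPM of granulocyte and macrophage markers, an alternative chosen after seeing the data (2 samples in the fit of the ∆CRD1,2/- and ∆/∆ cells, *Pax5* +/+ replicate 4 and ∆CRD2/- replicate 1, and also ∆CRD2/∆CRD2 replicate 1 in the fit with homozygous cells), *Cd22* (0.0784) and *Syk* (0.0529) were lost in ∆CRD1,2/-, *Cd22* (0.0514) in ∆CRD1,2/∆CRD1,2, and *Cd79a* (0.0696) in ∆/∆ against ∆CRD1,2/- cells, whereas *Pax5* deficiency still called 8 members. The last of these *Cd79a* calls was also lost without ∆CRD1,2/- replicate 2 (0.0508). Plasmacytoid dendritic cell markers summed to 3200 to 3690 TPM in ∆CRD1,2/- and 2380 to 2540 TPM in ∆CRD1,2/∆CRD1,2 cells, between the values of the controls and of ∆/∆ progenitors. Of the 8 genes, 1 was called higher and 2 lower in each genotype, with median log2 fold changes of 0.62 and -0.11. The sums thus did not stand for the whole list in either genotype. In these cells *Siglech* measured 7.33 to 11.4 and 2.5 to 4.86 TPM, within the control range. Erythroid markers summed to 35.1 to 39.7 and 16.1 to 132 TPM, below the 173 to 490 TPM of the controls, and 5 and 4 of 6 tested were called lower. The part of these lists was not tested.

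**Figure D3:**
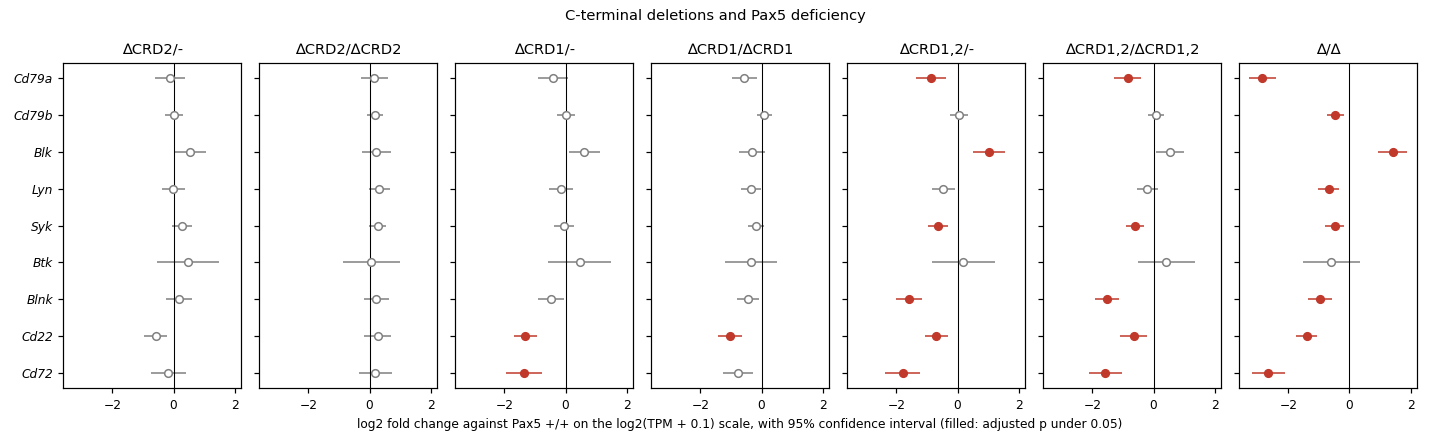
Log2 fold change of each member against *Pax5* +/+ pro-B cells in the C-terminal deletions and in ∆/∆ progenitors, with 95% confidence intervals and filled red points for an adjusted p under 0.05. No member is filled for ∆CRD2, *Cd22* with or without *Cd72* for ∆CRD1, and 5 or 6 members for ∆CRD1,2.

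Deletion of CRD1 alone lowered *Cd22* in both genotypes and *Cd72* in hemizygous cells. In ∆CRD1/- cells, 2 members were called by limma, against 8.51% of all genes: *Cd72*, with 65.8 and 91.5 TPM (-1.36 ± 0.26, adjusted p = 0.00867), and *Cd22*, with 19.7 and 21.8 TPM (-1.32 ± 0.17, adjusted p = 0.00076). Both lay below all controls. In ∆CRD1/∆CRD1 cells, *Cd22* alone was called by limma, with 31.4 and 31.9 TPM (-1.02 ± 0.19, adjusted p = 0.00389), against 8.16% of all genes. There *Cd72*, with 174 and 172 TPM, lay below the lowest control but differed by -0.78 ± 0.23 on the log2 scale and did not pass (adjusted p = 0.0564). It passed by edgeR (0.0335), by DESeq2 (0.0054), with a replicate block (0.0029) and without *Pax5* +/+ replicate 5 (0.00698). *Cd79a* measured 2260 and 2230 TPM in ∆CRD1/- and 2200 and 2150 TPM in ∆CRD1/∆CRD1 cells, also below all controls, but neither difference passed by limma (-0.41, adjusted p = 0.329, and -0.56, adjusted p = 0.0882). In ∆CRD1/∆CRD1 cells it passed by DESeq2 (0.0329) and without *Pax5* +/+ replicate 1 (0.0385). *Blnk*, with 971 to 1100 TPM in the 4 samples, likewise lay below the controls without passing (-0.48, adjusted p = 0.182, and -0.45, adjusted p = 0.145). Without *Pax5* +/+ replicate 3 or ∆CRD1/- replicate 1, the *Cd72* call in ∆CRD1/- was lost (adjusted p = 0.073 and 0.113), and without ∆CRD1/∆CRD1 replicate 1 the *Cd22* call was lost (0.0579). Plasmacytoid dendritic cell markers summed to 2180 to 2230 TPM in ∆CRD1/- and 1940 to 2090 TPM in ∆CRD1/∆CRD1 cells, of which *Ly6d* made up 1910 to 1960 and 1590 to 1720 TPM, and *Siglech* was at or below 0.200 TPM. Of the 8 genes, 1 was called higher and 2 lower in ∆CRD1/- cells, and 1 higher and 5 lower in ∆CRD1/∆CRD1 cells. The median log2 fold changes of this list were -0.90 and -1.25. Markers of later B cells summed to 35.9 to 37.9 TPM in ∆CRD1/- and 145 to 256 TPM in ∆CRD1/∆CRD1 cells, against 38.6 to 290 TPM in the controls. In ∆CRD1/- cells 2 of 6 erythroid and 2 of 4 NK cell markers tested were called lower. The part of these lists was not tested.

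Deletion of CRD2 alone called no member by limma, whether with 1 copy (0.513% of all genes called) or with 2 copies (0.0956%). At an unadjusted p under 0.05, 2 members passed with 1 copy (1071 of 13637 genes) and 0 with 2 copies (1006 of 13598 genes). On recovered reads edgeR called 0 and 0 and DESeq2 1 (*Cd22*) and 0. *Cd22* measured 30.0 and 39.6 TPM in ∆CRD2/- cells, below the controls (-0.59, 95% confidence interval -0.97 to -0.21, adjusted p = 0.244), but 49.7 and 78.7 TPM in ∆CRD2/∆CRD2 cells. *Cd79a* (2580 and 2910 TPM, and 3410 and 3240 TPM) and *Blnk* (1410 and 1750 TPM, and 1720 and 1540 TPM) overlapped the controls in both genotypes.

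Whether the 2 domains act additively was tested as the difference of fold changes between homozygous deletions, ∆CRD1,2 minus the sum of ∆CRD1 and ∆CRD2. *Blnk* was the single member called (-1.30 ± 0.25, adjusted p = 0.0159), against 3.07% of all genes. Its decrease with both domains deleted was larger than the sum of its changes with either, which were -0.45 and 0.22. *Syk* (-0.69, adjusted p = 0.058) and *Cd72* (-0.98, adjusted p = 0.145) had values of the same sign and did not pass by limma. *Syk* passed by DESeq2 (0.00829), in 1 model of 19 samples (0.049), without the read length term (0.0467) and without *Pax5* +/+ replicate 1 (0.0271). *Cd72* passed by DESeq2 (0.0291). Removal of CRD2 in addition to CRD1 lowered *Blnk* in hemizygous cells (-1.11 ± 0.20, adjusted p = 0.0156), again the single member called by limma, against 2.17% of all genes. There *Cd22* was 0.62 higher (adjusted p = 0.103), which passed by edgeR (0.0364), by DESeq2 (0.00262) and upon median-of-ratios rescaling (0.0498), and *Syk* was called lower in 1 model of 19 samples (0.0255). In homozygous cells the same comparison called no member by limma (1.71% of all genes), with *Blnk* at -1.08 (adjusted p = 0.0515). At an unadjusted p under 0.05, 4 members passed, against 2034 of 13598 genes. In this comparison 1 member was called by edgeR and 2 by DESeq2. The *Blnk* call of the difference of fold changes was lost without either ∆CRD1/∆CRD1 sample (adjusted p = 0.0732 and 0.0776), ∆CRD2/∆CRD2 replicate 1 (0.0736), ∆CRD1,2/∆CRD1,2 replicate 2 (0.092) or the samples with over 3000 TPM of granulocyte and macrophage markers (0.11). That in hemizygous cells was lost without either ∆CRD1/- sample (0.116 and 0.158) or ∆CRD1,2/- replicate 1 (0.0949).

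Copy number of the mutant allele was compared last. No member differed between 2 and 1 copies by limma for ∆CRD2 (0.272% of all genes called), ∆CRD1 (0%, with 819 of 13598 genes at an unadjusted p under 0.05) or ∆CRD1,2 (0.228%). A single member passed at an unadjusted p under 0.05 in each of the 3 comparisons, against 1048 (∆CRD2), 819 (∆CRD1) and 702 (∆CRD1,2) of 13598 genes. On recovered reads, edgeR and DESeq2 each called 1 member for ∆CRD2, *Cd22*, and 0 for the others. *Cd22* was 0.86 higher on the log2 scale in ∆CRD2/∆CRD2 than in ∆CRD2/- cells (95% confidence interval 0.42 to 1.29, adjusted p = 0.128). *Cd72*, which differed between ∆CRD1/- (65.8 and 91.5 TPM) and ∆CRD1/∆CRD1 cells (174 and 172 TPM) without overlap, gave 0.58 with an interval from -0.15 to 1.31, where each pair was set against controls of its own read length. For ∆CRD1,2, the intervals of *Blnk* (-0.34 to 0.47), *Cd72* (-0.32 to 0.77) and *Cd79a* (-0.41 to 0.47) spanned 0.

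Deletion of the central domains changed few members. In ∆OP/∆OP and ∆HD/∆HD cells no member was called by limma, against 0.485% and 0.639% of 12996 genes. At an unadjusted p under 0.05, 3 members passed for ∆OP and 1 for ∆HD, against 2531 and 1592 of 12996 genes. On recovered reads, edgeR called 0 and 1 and DESeq2 2 (*Blk* and *Blnk*) and 1 (*Cd22*). Relative to *Pax5* +/+ replicates 3 and 4, which had the same read length, *Blk* in ∆OP/∆OP cells (81.0 and 70.1 TPM, against 96.6 and 130 TPM) differed by -0.58 (adjusted p = 0.133) and *Blnk* (1880 and 1790 TPM, against 1390 and 1410 TPM) by 0.39 (adjusted p = 0.149). Granulocyte and macrophage markers summed to 3380 and 3900 TPM in the ∆OP/∆OP samples. They also reached 5130 TPM in *Pax5* +/+ replicate 4, a control of this fit, and 4280 TPM in ∆OP,HD/∆OP,HD replicate 2. The part of these markers was not tested.

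*Cd22* had the lowest adjusted p in ∆HD/∆HD and ∆OP,HD/∆OP,HD cells. It measured 47.6 and 56.8 TPM in these controls, 45.5 and 42.7 TPM in ∆OP/∆OP, 30.5 and 29.1 TPM in ∆HD/∆HD, and 27.7 and 21.0 TPM in ∆OP,HD/∆OP,HD cells. All values in the latter 2 genotypes lay below the controls. The 2.15-fold decrease in ∆OP,HD/∆OP,HD cells was called (-1.10 ± 0.16, adjusted p = 0.0238), against 1.22% of all genes, whereas that in ∆HD/∆HD cells was not (-0.80 ± 0.16, adjusted p = 0.0863). The call was lost upon omission of any of the 8 samples (adjusted p = 0.0811 to 0.155) and without a mean-variance trend (0.0857). No member departed from additivity of the 2 deletions by limma (0.00769% of all genes) or by edgeR and DESeq2. At an unadjusted p under 0.05, 1 member passed, against 903 of 12996 genes.

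The third comparison asked what the paired domain achieves on its own. Of the 9 members, *Cd79a* alone was called higher in Prd/∆ than in ∆/∆ progenitors by limma, against 1.97% of 12941 genes. It measured 1340 and 1490 TPM in Prd/∆ and 507 and 505 TPM in ∆/∆ cells, a 2.8-fold increase (1.48 ± 0.08, adjusted p = 0.00206). The level remained 2.21-fold below the 3100 and 3150 TPM of +/∆ cells (1.14 ± 0.08, adjusted p = 0.000159). Accordingly, the *Cd79a* to *Cd79b* ratio was 0.831 to 1.01 in Prd/∆, 0.364 to 0.375 in ∆/∆ and 1.92 in both +/∆ samples. *Cd72*, with 66.4 and 43.6 TPM in Prd/∆ cells, was higher than in ∆/∆ cells in both samples but did not pass (0.77, 95% confidence interval 0.30 to 1.23, adjusted p = 0.118). It was called by DESeq2 (0.0025) and, together with *Cd22* (0.0259), by limma without Prd/∆ replicate 2 (0.0186).

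**Figure D4:**
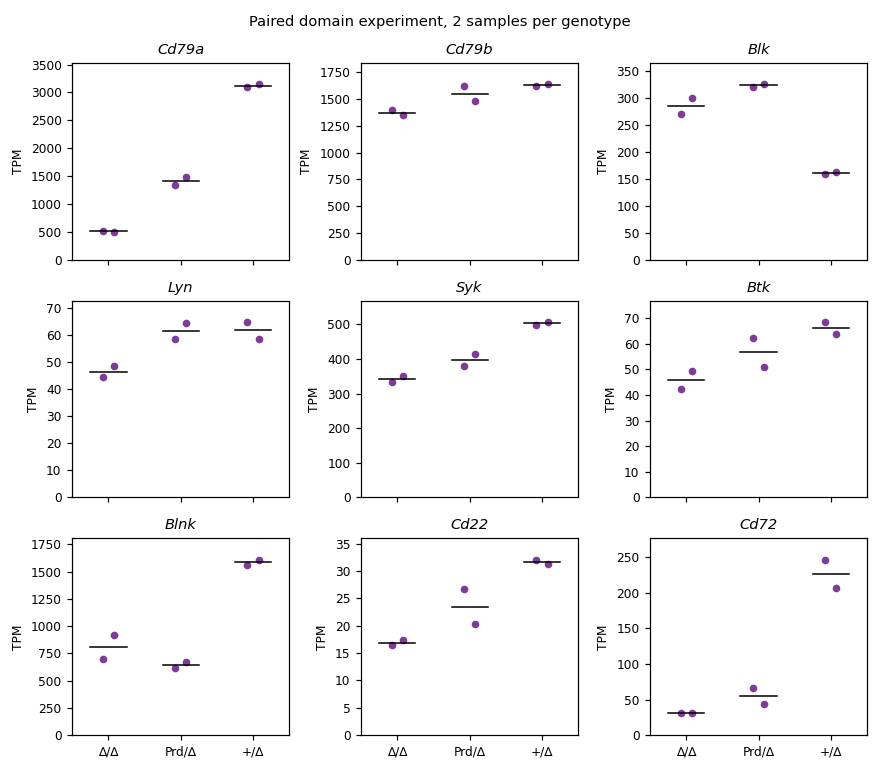
TPM of each member (linear scale from 0) in ∆/∆, Prd/∆ and +/∆ cells, with points for the 2 samples and a line for the mean. *Cd79a* in Prd/∆ cells lies between the other genotypes, whereas *Blk* and *Blnk* lie near or beyond ∆/∆.

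For *Blnk* and *Blk*, Prd/∆ cells lay on the far side of ∆/∆ cells. *Blnk* measured 617 and 674 TPM in Prd/∆, 698 and 915 TPM in ∆/∆ and 1560 and 1610 TPM in +/∆ cells, and Prd/∆ differed from ∆/∆ by -0.31 (adjusted p = 0.268, and 0.0418 by DESeq2). *Blk* measured 321 and 326 TPM in Prd/∆ cells, above the 270 and 300 TPM of ∆/∆ cells (0.19, adjusted p = 0.262). Compared with Prd/∆ cells, +/∆ cells had higher *Blnk* (1.3 ± 0.13, adjusted p = 0.00063), *Cd72* (2.07 ± 0.20, adjusted p = 0.000451), *Cd79a*, *Syk* (0.34 ± 0.08, adjusted p = 0.0139) and *Cd22* (0.44 ± 0.14, adjusted p = 0.0484) and lower *Blk* (-1.01 ± 0.08, adjusted p = 0.000207). These 6 calls compare with 40.7% of all genes. *Lyn*, with 58.6 and 64.5 TPM in Prd/∆ and 65 and 58.7 TPM in +/∆ cells, gave 0.01 with an interval from -0.23 to 0.25. The *Cd79a* increase over ∆/∆ did not pass without +/∆ replicate 2 (adjusted p = 0.0602) or ∆/∆ replicate 1 (0.0963) or 2 (0.0807), and *Syk* in the comparison with +/∆ cells not without either +/∆ sample (0.0999 and 0.117). *Cd22* was lost without any 1 of 5 samples (0.0885 to 0.214).

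The fourth comparison followed the members outside the B lineage, where *Pax5* was at or below 0.812 TPM in every sample. These tables were made with another genome build (mm9) and were normalised on their own, so that their levels are not compared with those of pro-B cells. In LMPP, *Syk* was the most abundant member (162 and 197 TPM), followed by *Cd79b* (109 and 83.0 TPM), *Btk* (82.1 and 64.6 TPM), *Cd72* (59.2 and 59.3 TPM) and *Lyn* (54.3 and 55.7 TPM). The 2 samples of *Cd79b* and of *Btk* lay close together, at 83.0 and 82.1 TPM for the nearest pair. *Blnk* was low (6.69 and 6.84 TPM), and *Cd79a*, *Blk* and *Cd22* were at or below 1.93 TPM. *Cd22* did not exceed 0.467 TPM in any of these samples and was not tested.

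From LMPP to DN3b, 7 of the 8 tested members fell and *Blk* rose, against 59.1% of 13482 genes called in either direction and 36.1% called lower. The median log2 fold change was -3.26 over the members and -0.18 over all genes. *Cd72* and *Btk* had the steepest losses, from the LMPP levels above to 1.5 and 0.844 TPM for *Cd72* (-5.59 ± 0.27, adjusted p = 5.57e-10) and 1.77 and 1.38 TPM for *Btk* (-5.45 ± 0.21, adjusted p = 5.54e-11). *Lyn* ended at 2.79 and 3.48 TPM (-4.10 ± 0.15, adjusted p = 4.34e-11), *Blnk* at 0.390 and 0.285 TPM (-3.98 ± 0.48, adjusted p = 6.06e-06) and *Syk* at 32.1 and 29.1 TPM (-2.54 ± 0.23, adjusted p = 3.3e-07). No DN3b value of these 5 genes overlapped an LMPP value. *Cd79b* ended at 26.7 and 24.8 TPM (-1.88 ± 0.18, adjusted p = 8.38e-07). *Cd79a* was near 0 throughout, and its call (-2.53, adjusted p = 0.00596) was lost without LMPP replicate 1 (0.101) or DN3b replicate 1 (0.0861), or if entries of exactly 1 were kept (0.355).

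*Blk* switched on at the first thymic stage. It measured 0.838 and 0.195 TPM in LMPP and 33.9, 30.6 and 31 TPM in DN1 cells, a 60.7-fold increase (5.92 ± 0.38, adjusted p = 9.62e-08). It then measured 16.3, 12.7 and 16.5 TPM in DN2a, 47.3, 37.4 and 36.1 TPM in DN2b, 27.8 and 15.1 TPM in DN3a, and 12.5 and 12.7 TPM in DN3b cells. The DN1, DN2a and DN2b stages did not overlap with each other, and *Blk* fell at DN2a (-1.07, adjusted p = 0.0277) and rose at DN2b (1.4, adjusted p = 0.00996). In the step to DN1, *Blnk* fell from 6.69 and 6.84 TPM to 0.942 to 2.18 TPM (-2.22 ± 0.43, adjusted p = 0.00219), the only other member of 8 to pass, against 18.6% of all genes. In the step to DN2a, 4 members passed, *Blnk* (-1.64), *Syk* (-0.80), *Lyn* (-0.55) and *Blk*, against 33.7% of all genes. The *Blk* decrease at DN2a was lost without any 1 of 5 samples, namely the 3 of DN1 and the 2 of DN2a with replicate number 1 (adjusted p = 0.0585 to 0.0989).

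**Figure D5:**
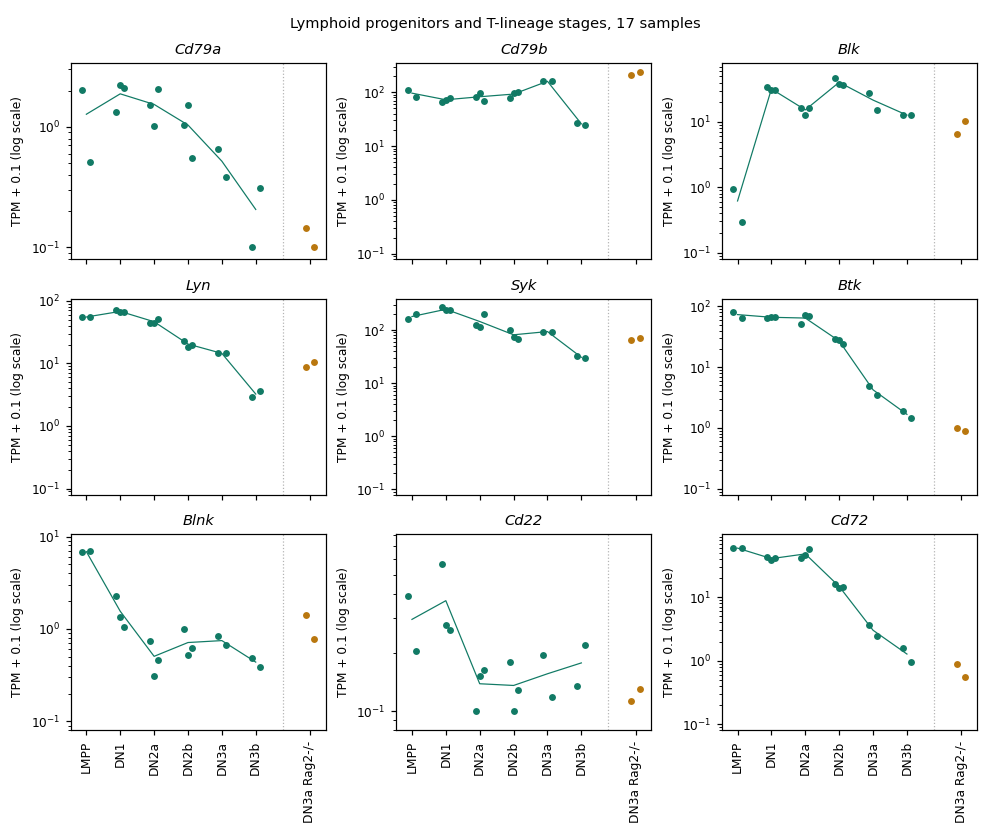
TPM + 0.1 of each member (log scale, a separate scale per gene) in LMPP and 5 thymocyte stages, with points for samples and a line through the wild-type means; orange points are *Rag2* -/- DN3a cells. *Btk*, *Cd72* and *Lyn* decline over the stages, *Blk* rises at DN1, and *Cd79b* is highest in DN3a.

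*Btk*, *Cd72*, *Lyn* and *Syk* declined between DN2a and DN2b, where 5 members passed, with the rise of *Blk*, against 18.2% of all genes. The log2 fold changes were -1.25 (*Btk*), -1.69 (*Cd72*), -1.19 (*Lyn*) and -0.81 (*Syk*). In the step to DN3a, 4 members passed, against 45.8% of all genes. *Btk* fell from 29.4, 27.5 and 23.8 TPM to 4.88 and 3.41 TPM (-2.68 ± 0.19, adjusted p = 2.27e-07) and *Cd72* from 15.8, 14 and 14.2 TPM to 3.49 and 2.34 TPM (-2.32 ± 0.25, adjusted p = 8.2e-06), while *Lyn* fell slightly (-0.49, adjusted p = 0.012). *Cd79b* instead rose, from 77.1, 97.7 and 102 TPM to 160 and 159 TPM (0.80 ± 0.17, adjusted p = 0.00186). In the step to DN3b, 5 members fell, against 53.4% of genes in either direction and 39.2% lower, with *Cd79b* changing most, from 160 and 159 TPM to 26.7 and 24.8 TPM (-2.62 ± 0.18, adjusted p = 9.93e-08). *Lyn* (-2.17), *Syk* (-1.61), *Btk* (-1.33) and *Cd72* (-1.27) also fell.

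The median over all genes moved in these steps, although every sample has the same total. The median log2 fold change was 0.27 from DN2b to DN3a and -0.41 from DN3a to DN3b, and 0.002 and -0.07 after median-of-ratios rescaling. Relative to the median, *Cd79b* in DN3a cells was then 0.52 higher and did not pass (adjusted p = 0.0872, and 0.0608 with TMM rescaling), whereas its decrease in DN3b cells was -2.19 and held. *Blk* in DN3a differed from DN2b cells by -0.96 and did not pass (adjusted p = 0.0525), but passed upon median-of-ratios (-1.24, 0.016) or TMM rescaling (-1.19, 0.018), with a pseudocount of 1 (0.00874), with a minimum of 5 TPM (0.0472), with a replicate block (0.0422) and without either LMPP sample or DN3a replicate 1 (0.00875 to 0.0384). The *Lyn* decrease at DN3a was lost without either DN3a sample (0.0588 and 0.0603). Granulocyte and macrophage markers declined along the same stages, as the 12 genes of the list in these tables summed to 2580 to 2690 TPM in LMPP, 1990 to 2260 TPM in DN1, 540 to 562 TPM in DN2a, 64.2 to 82.9 TPM in DN2b, 56.2 to 66.2 TPM in DN3a and 5.46 to 6.93 TPM in DN3b cells, where *Ctsg*, *Cd14* and *Ms4a3* were listed at 0. T cell markers (10 genes) summed to 40.4 to 47.0 TPM in LMPP and to 17200 to 17400 TPM in DN3a cells. The part of either in the changes of the members was not tested.

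In *Rag2* -/- DN3a cells, 5 members were lower than in wild-type DN3a cells, against 26.4% of all genes. *Btk* measured 0.900 and 0.803 TPM (-2.14 ± 0.21, adjusted p = 2.26e-05) and *Cd72* 0.786 and 0.452 TPM (-2.08 ± 0.27, adjusted p = 0.000191), below both wild-type samples. *Blk* (6.50 and 10.4 TPM, -1.30, adjusted p = 0.0342) and *Lyn* (8.50 and 10.5 TPM, -0.60, adjusted p = 0.0119) were also called. *Cd79b*, with 212 and 239 TPM, lay above both wild-type values and did not pass (0.50, adjusted p = 0.0613), but passed upon median-of-ratios rescaling (0.0484) and without any 1 of 3 DN2a or DN2b samples (0.0326 to 0.0448). The *Blk* call was lost without DN3a replicate 1 (0.268) or *Rag2* -/- replicate 1 (0.231) and upon rescaling by median of ratios (0.0608) or TMM (0.0502), and the *Lyn* call without either wild-type sample (0.058 and 0.059) or *Rag2* -/- replicate 1 (0.115). The *Cd79a* call (-2.05, adjusted p = 0.0421), at 0.0452 and 0 TPM against 0.553 and 0.284 TPM, was lost without any of these 4 samples (0.0853 to 0.222), without either DN1 sample of replicate 2 or 1 DN2a sample of replicate 1 (0.0534 to 0.055), with a pseudocount of 1 (0.311) and with the lower of both deposited values (0.233), and turned in sign if entries of exactly 1 were kept.

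Other genes of the pathway, 77 coreceptors, kinases, adaptors and inhibitors chosen by their function, were examined for context. In ∆/∆ against *Pax5* +/+ cells, 21 of 76 tested rose and 19 fell, where 17.1% of all genes were called higher and 14.6% lower. Of the coreceptor genes, 3 of 5 fell, with a median of -2.31. The kinases and inhibitors moved both ways, with 4 of 17 and 8 of 22 called higher and 2 and 5 called lower. *Fgr*, a Src-family kinase like *Blk* and *Lyn*, rose from 4.32 to 42.7 TPM (3.40, adjusted p = 0.00141). *Siglecg*, a relative of *Cd22*, fell from 217 to 16.2 TPM (-3.94), and *Fcrla* from 190 to 12.4 TPM (-4.24). Of the adaptors and effectors, 9 of 32 rose and 9 fell, and the largest increase was that of *Lat2*, a transmembrane adaptor, from 9.19 to 136 TPM (3.84, adjusted p = 9.37e-07), followed by the calcium channel gene *Itpr1*, from 27.6 to 139 TPM (2.29).

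With both C-terminal domains deleted, 23 of the 76 genes fell and 10 rose in ∆CRD1,2/- cells, and 26 fell and 8 rose in ∆CRD1,2/∆CRD1,2 cells. Decreases also outnumbered increases over all genes, with 12.3% lower and 7.96% higher in the former and 14.4% and 10.2% in the latter. *Lat2* rose to 69.3 and 71.4 TPM, and *Rasgrp1*, an activator of Ras, rose by 1.90 and 1.92 on the log2 scale against controls of the same read length (7.74 and 7.63 TPM, against 4.88 TPM over all controls). *Lck*, the Src-family kinase of T cells, rose from 78.6 to 240 TPM in ∆CRD1,2/- cells (1.44, adjusted p = 1.87e-05) and *Bank1*, a B cell scaffold, from 10.9 to 31.9 TPM in ∆CRD1,2/∆CRD1,2 cells (1.55). *Fcrla* fell to 2.60 and 0.994 TPM, and *Lcp2*, the adaptor related to *Blnk*, from 20.1 to 1.68 and 1.84 TPM. In ∆CRD1/- cells (3.85% of all genes higher, 4.66% lower), 6 rose, led by *Lat2* (1.15), *Itpr1* (1.11) and *Pik3r1* (1.01), and 12 fell, led by *Fcrla* (-4.14), *Zap70* (-2.83), the *Syk* relative of T cells, and *Lcp2* (-2.76). In ∆CRD1/∆CRD1 cells (3.71% higher, 4.45% lower), 5 rose, led by *Lat2* (0.93), *Pik3r1* (0.68) and *Itpr1* (0.67), and 9 fell, led by *Fcrla* (-3.37), the inhibitory Fc receptor gene *Fcgr2b* (-1.95) and *Cd38* (-1.75). The central deletions called 2 or 3 of 75: *Pik3ap1* (0.58) and *Lax1* (-0.81) in ∆OP/∆OP, *Lat* (0.81), *Plcg2* (0.54) and *Pik3ap1* (-0.60) in ∆HD/∆HD, and *Lat* (0.82), *Plcg2* (0.58) and *Fcrla* (-1.11) in ∆OP,HD/∆OP,HD cells.

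In the Prd experiment, 28 of 75 pathway genes were higher and 16 lower in +/∆ than in ∆/∆ cells, where 19.1% of all genes were higher and 20.8% lower. *Fcrla* (5.8) and *Siglecg* (4.19) were higher, and *Fgr* (-4.47), *Lat2* (-3.74) and *Rasgrp3* (-2.28) lower. Between +/∆ and Prd/∆ cells (16.6% of all genes higher, 24.1% lower), 26 were higher, among them *Fcrla* (5.69) and *Lcp2* (3.06), and 20 lower, led by *Lat2* (-3.73), *Fgr* (-3.63) and *Dok2* (-1.77). From LMPP to DN3b, 17 of 74 rose and 39 fell, where 22.9% of all genes rose and 36.1% fell. *Zap70* increased from 2.28 to 227 TPM and *Rasgrp1* from 0.0981 to 67.7 TPM, and *Sit1*, listed at 0 in LMPP, reached 69.8 TPM. *Cd300a* decreased from 21.2 to 0.0220 TPM, and *Siglecg*, at 16.7 TPM in LMPP, was listed at 0 in DN3b cells.

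Finally, the members were compared with each other over the 14 genotype group means, which share the *Pax5* allele series and, in part, libraries of 1 experiment, so that the correlations are descriptions. The means were adjusted neither for experiment nor for read length, so that differences of either kind enter the correlations. Of 36 pairs, 27 had a positive Pearson's r of log2(TPM + 0.1), with a median of 0.50 over all pairs. *Blnk* and *Syk* were most alike (r = 0.94), followed by *Cd72* and *Cd79a* (0.87). *Blk* was negatively correlated with all 8 others, from -0.82 with *Cd79a* to -0.29 with *Btk*, and *Blnk* with *Btk* gave -0.02. Among all genes, *Vpreb3* was most like *Cd79a* (r = 0.99), then *Adgrl2* and *Tnfrsf19* (both 0.96). *Cd40*, a costimulatory receptor, was most like *Cd72* (0.99), then *Wnt9a* and *1700027J07Rik* (both 0.98). *Mcoln2*, *Mettl17* and *Lck* were most like *Blk* (0.96, 0.95 and 0.95), and *Sh3bp5*, *Rbpms* and *Tmem132e* most like *Blnk* (all 0.97). For *Syk* these were *Mfsd6*, *Glyr1* and *Mtmr3* (all 0.97), and for *Cd79b* *Sdhaf2*, *Rfc3* and *Psmb1* (0.96, 0.96 and 0.95). *Btk* was most like *Actr10*, *Psmc2* and *Cbwd1* (0.98, 0.96 and 0.96), *Lyn* most like *Ino80c*, *Zfp943* and *Smim3* (0.95, 0.94 and 0.94), and *Cd22* most like *1110008P14Rik*, *Fkbp11* and *Rad51c* (0.88, 0.88 and 0.87).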

How the data were processed

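RNA-seq values of 48 samples were used, 31 of *Pax5* genotypes and 17 of lymphoid progenitors, and the ATAC-seq and ChIP-seq samples were not analysed here. For the genotypes, the authors aligned reads trimmed to 50 bases to GRCm38/mm10 with STAR (2.4.2a in the submitters' processing notes), counted them over RefSeq genes with Rsubread, and deposited TPM for 25579 genes. Of these tables, 23 gave gene names and 8 did not, and the latter were read by row order. In support of this order, a raw count column for *Pax5* +/+ replicate 3 held in 2 of the unnamed tables was 0 in exactly the rows where the named TPM of that sample was 0 (all 25579 rows), and the lengths implied by this column and by that of the Prd experiment's 6 unnamed tables had the same ratio within 1% in 100% of 14405 rows. The authors also deposited raw read counts for 2 samples. From these counts and the TPM, a length was implied for 16745 genes, and whole reads were recovered for every sample (10018678 to 43784791 reads). In the 2 samples with deposited counts, the recovered reads equalled these counts for all 16745 genes. The lengths came from these same counts, so this match does not test the reads recovered for the other samples. The sum of reads limits precision to counting error at low TPM.

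The lymphoid tables are labelled mm9, their reads were aligned with TopHat 1.4.1 per the study's methods, and the authors deposited 2 values per gene without a stated meaning (treated here as a score). They add up to 2000000 in every sample once entries of exactly 1 are left out, so the mean of both, with exactly 1 read as 0, was used as TPM, and their depth is unknown.

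Groups, replicate numbers and genotypes came from the labels. The genotype groups, the Prd experiment and the lymphoid stages were fitted in separate models with limma 3.58.1 (R 4.3.3) on log2(TPM + 0.1), with a trend, genes above 1 TPM in at least 1 sample, read length as a term where it differed, two-sided tests and p-values adjusted by Benjamini-Hochberg across every gene in the model. A pseudocount makes fold changes of low genes too small. Calls had an adjusted p under 0.05. Alternatives were other pseudocounts (0.01 and 1), filters and scalings, no trend, no read length term, a replicate block, 1 model of 19 samples, each sample left out, edgeR 4.0.16 (quasi-likelihood) and DESeq2 1.42.0 on recovered reads, and other readings of the lymphoid values. An alternative without samples over 3000 TPM of granulocyte and macrophage markers was added after seeing the data. Models were tested on simulated data.

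The members and the pathway and marker lists were chosen with earlier results of these data known. All 9 members are named in every comparison or counted. Of the other pathway genes, up to 3 per direction with the largest change and above 5 TPM in a group mean are named in comparisons with control cells and between LMPP and DN3b. Some genes that this rule names are not reported here. For likeness, the 3 genes with the highest Pearson's r are named, without antigen receptor segments. No samples had identical values.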

Additional observations from a re-analysis of the deposited data

Results flagged for a closer look

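*Syk* in *Pax5* +/+ replicate 1, at 682 TPM, stood apart from the other 4 *Pax5* +/+ samples (503 to 553 TPM) by Dixon's criterion. Of 10 such groups of 5 tested (9 members and *Pax5*), this was the only 1, and chance gives about 1 in 20. Without this sample, *Syk* in ∆/∆ progenitors had a log2 fold change of -0.39 and an adjusted p of 0.0554.

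The effect of deleting CRD1 on *Blnk* differed with the state of CRD2, as the difference of log2 fold changes was -1.30 in homozygous cells (adjusted p = 0.0159 by limma, with 2 samples per mutant genotype). Both ∆CRD1,2/∆CRD1,2 samples (532 and 445 TPM) lay below both ∆CRD1/∆CRD1 samples (1100 and 1080 TPM), and of the ∆CRD2/∆CRD2 samples (1720 and 1540 TPM) 1 lay above all 5 *Pax5* +/+ samples and the other above 4 of 5. The gate of the ∆CRD1,2/∆CRD1,2 sort is not given in the sources used here.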

How the results depend on the processing

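The numbers of members called in ∆/∆ against *Pax5* +/+ cells and in the Prd experiment's +/∆ against ∆/∆ cells stayed within 1.5 times under every alternative run, with 6 to 8 and 6 to 9 members upon omission of single samples. Other counts moved. Upon omission of single samples they ranged from 3 to 6 (∆CRD1,2/- and ∆CRD1,2/∆CRD1,2), 1 to 2 (∆CRD1/-), 0 to 2 (∆CRD1/∆CRD1 and the CRD1 by CRD2 difference), 0 to 0 (∆OP,HD), 0 to 1 (∆CRD1,2/- against ∆CRD1/-, the same in homozygous cells, ∆/∆ against ∆CRD1,2/-, and ∆CRD2/∆CRD2 against ∆CRD2/-), 0 to 3 (Prd/∆ against ∆/∆) and 2 to 7 (*Rag2* -/- against wild-type DN3a).

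With edgeR the count was 1 for ∆HD, 2 for ∆CRD1,2/- against ∆CRD1/-, 2 for ∆CRD1/∆CRD1, 1 for ∆CRD1,2 against ∆CRD1 in homozygous cells and 1 for ∆CRD2/∆CRD2 against ∆CRD2/-. With DESeq2 these were 1, 2, 3, 2 and 1, and the count was 2 for ∆OP, 1 for ∆CRD2/-, 2 for ∆/∆ against ∆CRD1,2/-, 3 for the CRD1 by CRD2 difference and 3 for Prd/∆ against ∆/∆. Without the read length term, counts were 1 (∆CRD2/-), 3 (∆/∆ against ∆CRD1,2/-), 3 (∆CRD1,2 against ∆CRD1, homozygous) and 2 (CRD1 by CRD2). In 1 model of 19 samples, they were 2 (∆CRD1,2/- against ∆CRD1/-), 1 (∆CRD1,2 against ∆CRD1, homozygous) and 2 (CRD1 by CRD2). No trend gave 0 for ∆OP,HD, no filter 3 for *Rag2* -/-, a minimum of 5 TPM 1 for ∆CRD1,2 against ∆CRD1 in homozygous cells, median-of-ratios rescaling 2 for ∆CRD1,2/- against ∆CRD1/-, and TMM rescaling 4 for DN1 against LMPP. Without samples over 3000 TPM of granulocyte and macrophage markers, 0 members were called for ∆/∆ against ∆CRD1,2/- and for the CRD1 by CRD2 difference. The causes were not tested. *Cd79a* in *Rag2* -/- against wild-type DN3a cells turned from -2.05 to 0.75 (adjusted p = 0.475) with entries of exactly 1 kept as 1, since absent values then count as 1.

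Replicate numbers did not pair the samples, as the median correlation of deviations between same-numbered samples was 0.04, 0.03, -0.10 and -0.01 in the 4 models with shared numbers, and few pairs exceeded 0.1 (2 of 20, 4 of 42, 0 of 6 and 3 of 61). With a replicate block, 2 members were called in ∆CRD1,2/-, 0 in ∆/∆ against ∆CRD1,2/-, 2 in ∆CRD1/∆CRD1, 3 in ∆CRD1,2/∆CRD1,2 and 1 in ∆CRD1,2 against ∆CRD1 in homozygous cells. Among single members, 1776 recomputed calls held, 108 were lost and 1 reversed, and of the recomputed non-calls 4251 held and 81 passed. With 2 samples in most groups, intervals for *Btk* were the widest against *Pax5* +/+ cells (-1.53 to 0.34 in ∆/∆), so that smaller changes were not detectable.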
